A study of Rattus norvegicus with 12 samples.

Results

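Insulin-like growth factor 1 (Igf1) and the 7 genes of its binding proteins, Igfbp1 to Igfbp7, were followed across the cells of the rat liver. These 8 genes were taken by name from the 32883 genes counted. The question was how the ligand and its binding proteins were divided among hepatocytes, stellate cells, endothelial cells, Kupffer cells and other immune cells, whether their levels differed between rat strains, and where in the liver lobule they lay.

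All animals were healthy males. Total liver homogenate (TLH) cells from 2 Dark Agouti (DA) and 2 Lewis (LEW) rats were counted with 10x Genomics version 2 chemistry, and nuclei from 2 DA and 2 LEW livers with version 3 (snRNA-seq). The nuclei are described as from additional rats, but the names of their counts carry the same animal numbers as TLH, so the sets are not called independent here. One immune-enriched library per strain, also version 3, came from cells given extra washes and red cell depletion. The study also removed parenchymal cells from these samples by centrifugation, so their hepatocyte gates hold only hepatocytes that were left. Visium sections A and B came from the livers of 2 Wistar rats. The TLH rats are described as 8 to 10 weeks old, whereas the names of the deposited counts hold 10 weeks for DA and 13 weeks for LEW, and 9 weeks for both immune-enriched rats. The study itself gives a higher age and describes the strains as age matched, so the sources disagree and the part of age in the TLH strain comparison was not tested.

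IGF1 is made largely by the liver under the control of growth hormone, and it circulates bound to binding proteins that set its lifetime in blood and its access to the IGF1 receptor. IGFBP3 is the main carrier in plasma, where it joins IGF1 and the acid-labile subunit, Igfals, in a stable complex. IGFBP1 is a short-lived binding protein whose gene is repressed by insulin through FOXO factors, IGFBP2, IGFBP4, IGFBP5 and IGFBP6 bind IGFs with high affinity, and IGFBP7 binds them weakly and is a matrix protein of vessels.

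Igfbp1 and Igfbp3 are neighbours in the rat genome. In the RefSeq annotation of the GRCr8 build Igfbp2 and Igfbp5 were neighbours too, on opposite strands of chromosome 9 with 0 annotated genes between them. Igfbp1 and Igfbp3 lay next to each other on chromosome 14, with 0 annotated genes between them and on opposite strands. In TLH Igfbp1 was highest in the hepatocyte gate and Igfbp3 in the stellate gate. The 250 bases before the annotated start are shown for these genes and for Igfbp4, a gene with another level pattern again. In lower case with matches in capitals, the windows are chr14:86261027-86261276 on the plus strand for Igfbp1, chr14:86277945-86278194 on the minus strand for Igfbp3 and chr10:84491221-84491470 on the plus strand for Igfbp4, each written 5′ to 3′ along its gene. Capitals mark CAAAACA and CAAAATA, the core letters of insulin-response elements read by FOXO factors, and the TATA-like words TATAAA and TATATA, all searched on both strands.
Igfbp1: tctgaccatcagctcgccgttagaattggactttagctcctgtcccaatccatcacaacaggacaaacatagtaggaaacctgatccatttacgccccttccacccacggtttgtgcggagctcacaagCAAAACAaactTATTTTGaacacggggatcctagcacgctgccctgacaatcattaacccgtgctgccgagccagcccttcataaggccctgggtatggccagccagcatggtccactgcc
Igfbp3: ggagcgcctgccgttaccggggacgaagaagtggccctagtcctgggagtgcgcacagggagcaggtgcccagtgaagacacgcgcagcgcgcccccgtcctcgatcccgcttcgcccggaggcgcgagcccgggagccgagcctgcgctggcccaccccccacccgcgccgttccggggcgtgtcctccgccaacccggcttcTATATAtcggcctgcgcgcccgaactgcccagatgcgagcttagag
Igfbp4: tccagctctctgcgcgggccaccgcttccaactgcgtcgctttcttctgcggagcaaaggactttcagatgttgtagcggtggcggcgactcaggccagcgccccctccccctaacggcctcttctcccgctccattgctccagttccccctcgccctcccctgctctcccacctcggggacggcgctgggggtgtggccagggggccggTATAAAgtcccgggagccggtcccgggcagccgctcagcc
The Igfbp1 window held CAAAACA 121 to 115 bases before the start and CAAAATA, on the other strand, 110 to 104 bases before it. Either word was present in 9.54% of 33469 RefSeq windows of this length, and among the 8 members in those of Igf1 and Igfbp1. TATAAA lay 40 to 35 bases before the Igfbp4 start and was found in 12.9% of all windows, and TATATA lay 46 to 41 bases before the Igfbp3 start and was found in 5.45%. GGGCGG, the core of GC boxes, was present in 30.5% of windows and in those of Igfbp2 and Igfbp7. The share of G and C was 52.8% in the Igfbp1 window, 71.6% in that of Igfbp3, 68.8% in that of Igfbp4 and 74.4% in that of Igfbp7, beside a median of 51.2% over all windows. A match of letters is a description of the window only.

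Each TLH library held between 61441846 and 92484173 unique molecular identifiers (UMIs, counted molecules), each nuclei library between 8039397 and 15186970, and the immune-enriched libraries 48255870 and 60005133. Barcodes that passed the filters were gated by UMIs from marker genes that include no member. Over the 4 rats of each set, TLH gave 2109 hepatocyte-, 909 stellate-, 1157 endothelial- and 2210 Kupffer-gated barcodes, and nuclei gave 2810, 241, 461 and 249. Between 54.2% and 61.8% of TLH barcodes and between 58.6% and 74.5% of nuclei entered no gate. Barcodes with mixed markers are counted apart from these and were dropped too. Genes typical of each cell type that were not used for gating (held-out genes) checked the gates. Held-out stellate genes such as Bgn reached in TLH a median of 4.47% of their stellate level in the endothelial gate and 4.25% in the Kupffer gate. Held-out hepatocyte genes, such as the fibrinogen chains Fga and Fgb, reached 69.7% of their hepatocyte level in the endothelial gate, 77.4% in the stellate gate and 55.5% in the Kupffer gate of TLH, and 57.3%, 67.6% and 61.4% in nuclei. Hepatocyte RNA was thus spread over every gate of these libraries, and the level of a hepatocyte gene in another gate has to be read against those percentages. The nuclei libraries shared 8 to 24 barcodes pairwise, at most 0.367% of a library. Levels below are given as CPM, the UMIs of a gene per 1000000 UMIs of the gated barcodes, with mean ± SD over 4 rats, and adjusted p-values come from edgeR's quasi-likelihood test across all genes tested. Log2 differences come from the same fits, which rescale the sums (TMM), whereas CPM and shares of the hepatocyte level are not rescaled. The log2 differences are therefore in places larger than the CPM beside them would give.

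Igf1, the ligand, was counted in every gate of the dissociated cells. In TLH hepatocytes its level was 1034 CPM in DA-1, 917 in DA-2, 738 in LEW-1 and 951 in LEW-2. In stellate-gated cells the same rats gave 987, 806, 679 and 818 CPM, and in Kupffer-gated cells 882, 714, 480 and 524 CPM. Ranges of hepatocytes, stellate and endothelial cells overlapped, and within each rat the hepatocyte value was the highest of the 4 gates. The means were 910 ± 125 CPM in hepatocytes, 822 ± 126 in stellate, 814 ± 135 in endothelial and 650.0 ± 185 in Kupffer cells (SD, n = 4). Against hepatocytes Igf1 was lower by log2 differences of -0.43 (SE 0.07, adjusted p = 2.0e-06) in endothelial and -0.32 (SE 0.08, adjusted p = 0.000864) in stellate cells, and by -0.68 (SE 0.07) in Kupffer cells. The difference between stellate and endothelial cells did not pass the test (0.11, adjusted p = 0.466). Kupffer cells were below endothelial cells by -0.25, a call lost without LEW-1 (adjusted p = 0.0556) and without LEW-2 (0.0967). It was also lost without the filter on low counts (-0.18, adjusted p = 0.115) and at 1500 UMIs for LEW (-0.14, 0.0809).

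The held-out hepatocyte genes give the hepatocyte RNA that moved with these levels. Igf1 in the endothelial gate stood at a median of 89.0% of its hepatocyte level (83.2% to 96.1% over rats), above the 69.7% of the held-out genes, and in the Kupffer gate at 71.5% (55.1% to 85.3%), beside 55.5%. In nuclei its level was 1268 ± 189 CPM in hepatocytes, 933 ± 191 in stellate, 834 ± 316 in Kupffer and 743 ± 218 in endothelial barcodes. There the share of the hepatocyte level was 62.8%, 73.4% and 68.5% in endothelial, stellate and Kupffer barcodes, beside 57.3%, 67.6% and 61.4% for the held-out genes. The log2 differences from hepatocyte nuclei were -1.06 (SE 0.19, adjusted p = 5.1e-06), -0.69 (SE 0.20, adjusted p = 0.00433) and -0.99 (SE 0.20, adjusted p = 3.4e-05), and all 3 calls were lost with at least 1500 UMIs per nucleus (adjusted p = 0.0946, 0.476 and 0.234).

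The washed immune-enriched libraries, which hold 1 rat per strain and were not tested here, held far less hepatocyte RNA outside the hepatocyte gate in DA. There 107 Kupffer-gated barcodes gave 146 CPM (95% Poisson interval 123 to 173), beside 600 CPM (492 to 726) in 74 hepatocytes. The endothelial gate of the same library gave 26.3 CPM (15.0 to 42.7), lymphoid cells 10.3 CPM and other myeloid cells 16.1 CPM. Igf1 in DA Kupffer cells was at 24.3% of its hepatocyte level, whereas 8 held-out hepatocyte genes lay there between 1.05% and 6.03%. In endothelial cells the Igf1 share, 4.38%, lay inside the 1.84% to 12.3% of the held-out genes. With each barcode thinned to 1000 UMIs, 13.1% of DA Kupffer barcodes and 3.0% of endothelial barcodes kept an Igf1 UMI.

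In the LEW immune-enriched library Igf1 reached 183 CPM (165 to 201) in Kupffer cells, 268 CPM (237 to 300) in endothelial cells and 134 CPM in lymphoid cells, beside 641 CPM (603 to 682) in hepatocytes. The Kupffer share of 28.5% was just above the 17.8% to 27.5% of 9 held-out genes, and the endothelial share of 41.7% lay within their 33.4% to 47.9%. This library held more hepatocyte RNA in every other gate than its DA counterpart. In the Kupffer barcodes with the lower hepatocyte-list shares, the Igf1 share was 16.1% beside 5.65% to 8.87% for the held-out genes, and in DA 23.7% beside 0.668% to 3.85%. Stellate-gated barcodes were few, 16 in DA and 21 in LEW, and gave Igf1 at 39.2% and 65.7% of the hepatocyte level, above the highest held-out gene at 12.4% and 38.3%.

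**Figure D1:**
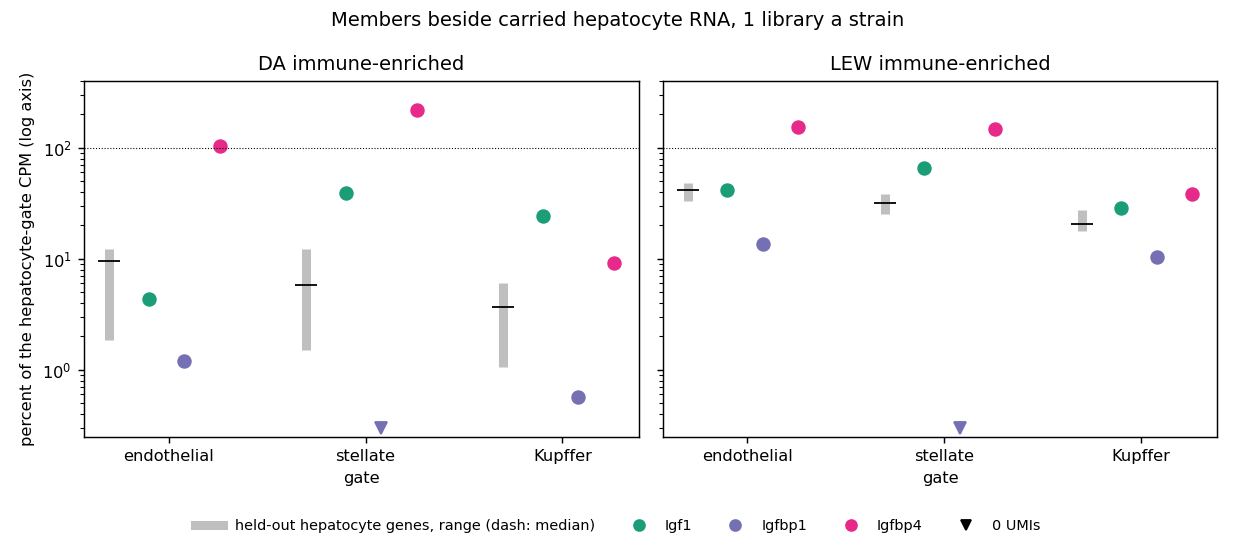
Level of Igf1, Igfbp1 and Igfbp4 in non-hepatocyte gates of the DA and LEW immune-enriched libraries, as a percentage of the CPM in the hepatocyte gate of the same library (log axis), with grey bars for the range and a dash for the median of held-out hepatocyte genes, a dotted line at 100% and triangles for 0 UMIs. In DA, Igf1 in Kupffer cells (24.3%) stands above the grey bar and Igfbp4 in endothelial cells (104%) reaches the hepatocyte level, while the points of Igfbp1 are below the bar in Kupffer and endothelial cells of both libraries. In DA these points rest on few UMIs, and their counting error reaches the bar. Igfbp1 has 0 UMIs in stellate cells, which at the depth of the DA library does not place it below the bar.

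Igfbp1, the insulin-repressed binding protein, was highest in hepatocytes of every TLH rat. In TLH hepatocytes its level was 565 CPM in DA-1, 960 in DA-2, 394 in LEW-1 and 279 in LEW-2. In endothelial cells the same rats gave 262, 518, 173 and 122 CPM, and in stellate cells 285, 567, 250 and 204 CPM. Rats differed as widely as gates, so that the ranges of the gates overlapped and the order showed within each rat. Compared with hepatocytes, the log2 difference was -1.32 (SE 0.09, adjusted p = 2.9e-21) in endothelial, -0.95 (SE 0.10) in stellate and -1.37 (SE 0.09) in Kupffer cells. Its share of the hepatocyte level, 45.2%, 61.3% and 42.6% in endothelial, stellate and Kupffer cells, was under the 69.7%, 77.4% and 55.5% of the held-out hepatocyte genes. The immune-enriched libraries gave the same picture with less carried RNA. Hepatocytes held 549 CPM in DA and 143 CPM in LEW, Kupffer cells 3.15 and 14.7 CPM, and endothelial cells 6.58 and 19.5 CPM. No Igfbp1 UMI was counted among the 76527 UMIs of DA and the 97253 UMIs of LEW stellate-gated barcodes. A count of 3 UMIs there would give 39.2 and 30.8 CPM. In nuclei the level was 1401 ± 463 CPM in hepatocytes against 873 ± 81.8 in endothelial, 778 ± 285 in stellate and 1099 ± 410.5 in Kupffer barcodes. Those are 63.8%, 58.1% and 67.5% of the hepatocyte level as medians over rats, beside 57.3%, 67.6% and 61.4% for the held-out genes. In Kupffer nuclei the share ranged from 48.8% to 165% over rats, and in LEW-1 they held 1635 CPM beside 989.6 CPM in hepatocyte nuclei. The lower Kupffer level was called over the 4 rats (-0.65, SE 0.20, adjusted p = 0.00829), but not without DA-1 (-0.48, 0.149), without DA-2 (-0.33, 0.377), with DESeq2 (-0.58, 0.0565), in the barcodes with lower hepatocyte-list shares (-0.88, 0.0573) or with at least 1500 UMIs per nucleus (-0.30, 0.305).

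Igfbp4, which blocks IGF action locally until it is cleaved, was highest in TLH hepatocytes with 642 CPM in DA-1, 648 in DA-2, 475 in LEW-1 and 559 in LEW-2. The other gates lay at 436 ± 91.2 CPM in endothelial, 437 ± 105 in stellate and 342 ± 80.7 in Kupffer cells, beside 581 ± 81.4 in hepatocytes. Against hepatocytes the log2 differences were -0.68 (SE 0.08, adjusted p = 2.9e-11), -0.59 and -0.96. Its shares, 75.0%, 75.5% and 57.9%, stood beside 69.7%, 77.4% and 55.5% for the held-out genes. In nuclei Igfbp4 was 1394 ± 222 CPM in hepatocytes, 1126 ± 172.5 in stellate, 981 ± 198 in Kupffer and 896 ± 79.4 in endothelial barcodes. The washed libraries gave another order. Endothelial cells held 312 CPM in DA and 415 CPM in LEW, as much as or more than the 300.2 and 271 CPM of hepatocytes. That is 104% and 153% of the hepatocyte level, against at most 12.3% and 47.9% for the held-out genes. The stellate gate stood at 653 and 401 CPM, and Kupffer cells at 27.3 and 103 CPM. After thinning to 1000 UMIs, 32.3% and 34.3% of endothelial barcodes kept an Igfbp4 UMI, beside 36.5% and 28.7% of hepatocytes and 3.7% and 11.6% of Kupffer cells. Igfbp4 thus lay in endothelial and stellate cells at or above the level of the hepatocytes left in both washed libraries, while Kupffer cells held less.

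Igfbp2, a binding protein known for high levels in fetal and fasted liver, was near the detection limit. Hepatocyte-gated TLH cells held 1.66 CPM in DA-1, 4.05 in DA-2, 16.9 in LEW-1 and 10.4 in LEW-2. Nuclei held 8.39 and 7.09 CPM in DA and 25.5 and 11.6 CPM in LEW. Both LEW rats were above both DA rats in each set. The TLH endothelial gate held 8 Igfbp2 UMIs beside 43 in hepatocytes. No test between these gates is given, because Igfbp2 was too low for a test within endothelial cells and passed the filter on low counts through hepatocytes. Kupffer cells of TLH held means of 5.10 CPM in DA and 7.36 CPM in LEW, from 18 and 21 UMIs. Their median share of the hepatocyte level was 113% in TLH (33.2% to 276% over rats) and 101% in nuclei (16.9% to 175%). In the immune-enriched libraries the hepatocyte gate held 0 and 0.628 CPM. The 2 mesothelial-gated barcodes of each, covering cells of the liver surface, held 592 and 1635 CPM, from 12 and 21 UMIs.

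Igfbp3, the main plasma carrier, was a gene of stellate-gated cells. Its TLH level there was 1630 CPM in DA-1, 1407 in DA-2, 1076 in LEW-1 and 718 in LEW-2. In hepatocytes the same rats gave 25.7, 26.3, 16.9 and 36.4 CPM, and in endothelial cells 41.7, 61.7, 25.3 and 39.4 CPM. Every stellate value was above every value of the other 3 gates. The stellate level was 42.7-fold that of hepatocytes (log2 difference 5.42, SE 0.22, adjusted p = 1.3e-09) and exceeded that of endothelial cells by 4.92 on the log2 scale (SE 0.23). Kupffer-gated cells, at 55.5 ± 12.7 CPM, were above hepatocytes (log2 difference 0.98, SE 0.27, adjusted p = 0.0104), a call lost without DA-2 (adjusted p = 0.0520), and endothelial cells were not called against hepatocytes (0.49, adjusted p = 0.290). The hepatocyte gate leaves out barcodes with any UMI of the non-parenchymal lists, and with 1 such UMI allowed the TLH differences from hepatocytes were 5.10 for stellate Igfbp3, 4.67 for stellate Igfbp7 and 2.47 for endothelial Igfbp7, all still called. Stellate-gated barcodes with at least 2 UMIs of the fibroblast and smooth muscle list, 18 to 137 per rat, were set apart as a gate of their own. They held Igfbp3 at a mean of 1122 CPM. These UMIs can come from 1 gene, so this gate may include other stellate cells.

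The endothelial and Kupffer levels of Igfbp3 in TLH were at 3.47% and 4.43% of the stellate level, close to the 4.47% and 4.25% of held-out stellate genes. In nuclei the stellate level was 2487, 2684, 2018 and 1540 CPM in DA-1, DA-2, LEW-1 and LEW-2, 101-fold that of hepatocyte nuclei (log2 difference 6.66, SE 0.34). Hepatocyte nuclei averaged 23.0 CPM in DA and 13.5 CPM in LEW. Endothelial nuclei held 80.2 ± 53.2 CPM, a log2 difference of 1.91 (SE 0.39) from hepatocyte nuclei. It was 0.70 in the stricter gate and 0.56 in the barcodes with lower hepatocyte-list shares. No test against hepatocyte nuclei is given, because Igfbp3 passed the filter on low counts through the gates where it is high. In the immune-enriched libraries stellate-gated barcodes held 8546 CPM in DA and 7414 in LEW, and 93.8% and 90.5% of those barcodes had an Igfbp3 UMI. Hepatocytes there had 0 UMIs in DA, where 3 UMIs would give 17.0 CPM, and 1.26 CPM in LEW. Endothelial cells held 39.5 and 55.7 CPM. A share of 37.2% ± 12.4 of all TLH Igfbp3 UMIs and of 39.9% ± 3.78 in nuclei fell into the stellate gate, although few barcodes were in it, and barcodes with mixed markers held a further 21.7% and 17.9%.

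**Figure D2:**
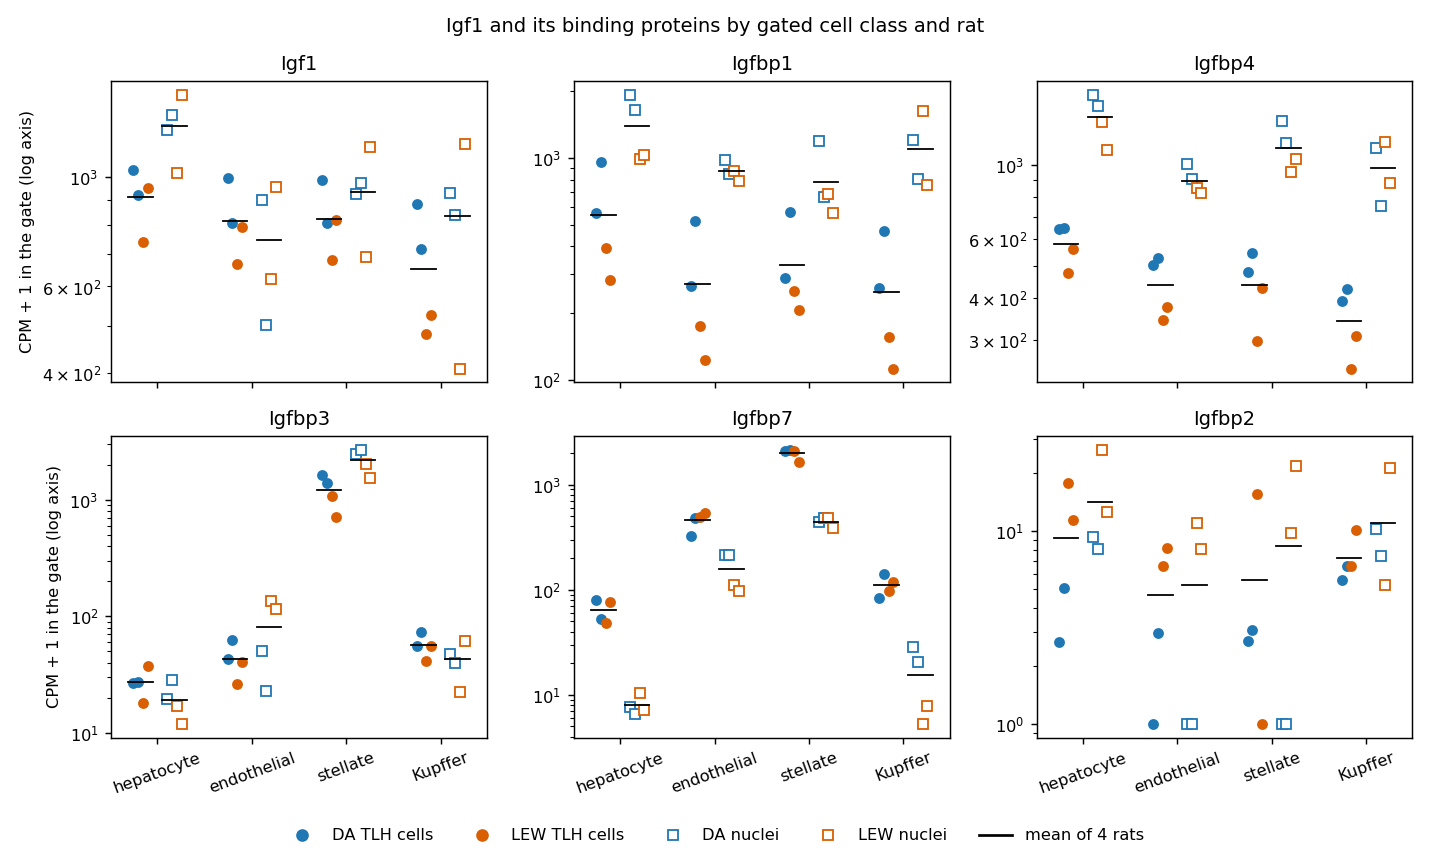
CPM + 1 (log axis) of Igf1, Igfbp1, Igfbp2, Igfbp3, Igfbp4 and Igfbp7 in hepatocyte-, endothelial-, stellate- and Kupffer-gated barcodes, with filled circles for TLH cells, open squares for nuclei, blue for DA, orange for LEW and a line at the mean of 4 rats. Igf1, Igfbp1 and Igfbp4 are spread over all gates with the highest mean in hepatocytes, Igfbp3 is high in stellate barcodes (1208 CPM in TLH, 2182 in nuclei), and Igfbp7 steps down from stellate to endothelial to the other barcodes.

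Igfbp7, the weak IGF binder of vessels, was highest in stellate cells and also counted in the fibroblast and smooth muscle gate, a part of the stellate-gated barcodes, and in endothelial cells. In stellate-gated TLH cells its level was 2100 CPM in DA-1, 2136 in DA-2, 2075 in LEW-1 and 1631 in LEW-2. Endothelial cells of these rats held 325, 484, 486 and 541 CPM, and hepatocytes 79.7, 51.7, 47.7 and 75.4 CPM. With Kupffer cells at 83.3 to 139.6 CPM, the ranges of the 4 gates did not overlap. Stellate cells were above endothelial cells (log2 difference 2.25, SE 0.19, adjusted p = 1.2e-05), and endothelial cells were 6.0-fold above hepatocytes (2.59, SE 0.23, adjusted p = 8.0e-06) and above Kupffer cells, which were lower by -1.96 (SE 0.20). The difference of Kupffer cells from hepatocytes did not pass the test (0.62, adjusted p = 0.0611), although every Kupffer value lay above every hepatocyte value. Barcodes of the fibroblast and smooth muscle gate held 1147 to 1763 CPM in TLH and 206 to 438 CPM in nuclei. After thinning, 65.3% of them in TLH and 35.1% in nuclei kept an Igfbp7 UMI, beside 46.3% and 17.4% of endothelial barcodes.

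As a share of the stellate level, endothelial Igfbp7 exceeded the held-out stellate genes. It was 23.0% of the stellate level in TLH beside 4.47% for held-out stellate genes, and 34.5% beside 1.55% in nuclei. In nuclei the stellate gate held 444 ± 45.9 CPM, endothelial 157 ± 62.9 and hepatocytes 6.92 ± 1.67 CPM. No test against hepatocyte nuclei is given, because Igfbp7 had 39 UMIs in them and passed the filter on low counts through the gates where it is high. Immune-enriched endothelial cells held 1102 CPM in DA and 1127 CPM in LEW and stellate cells 6455 and 5419, while Kupffer cells held 31.5 and 218 and DA hepatocytes 0 UMIs. After thinning, 55.6% and 59.0% of endothelial barcodes had an Igfbp7 UMI, and 0% of hepatocytes.

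Igfbp5 and Igfbp6 were counted too seldom for any test and passed no filter on low counts. Barcodes passing the filters held 19 to 26 Igfbp5 UMIs and 17 to 167 Igfbp6 UMIs per TLH library, and 2 to 8 and 6 to 15 per nuclei library. The immune-enriched DA library held 108 Igfbp5 and 288 Igfbp6 UMIs, the LEW library 131 and 21. These UMIs sat in very few barcodes. Of the DA Igfbp6 UMIs, 286 lay in 10 barcodes, all with UMIs of mesothelial markers, and of the Igfbp5 UMIs 103 lay in 8 barcodes, again all with mesothelial markers. In LEW, 128 Igfbp5 UMIs lay in 7 barcodes, 6 of them with mesothelial markers. Most of these barcodes also had UMIs of other lists, and 9 of the 10 DA Igfbp6 barcodes had stellate markers, so that single cells and doublets cannot be told apart here. Among TLH barcodes with at least 2 Igfbp6 UMIs, 8 of 12 in DA-1, 10 of 11 in DA-2, 1 of 1 in LEW-1 and 4 of 7 in LEW-2 had mesothelial markers. Among such nuclei 1 of 2 in DA-1, 1 of 3 in DA-2 and 0 of 1 in LEW-1 did.

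Across the 6 pairs of gates in TLH, 25 of the 48 member and pair combinations passed the test, with Igfbp5 and Igfbp6 untested. Of 6 members tested in each pair, 5 differed between endothelial cells and hepatocytes, 5 between stellate cells and hepatocytes and 4 between Kupffer cells and hepatocytes, where 34.0%, 20.0% and 45.3% of all genes did. Stellate and endothelial cells differed in 3, Kupffer and endothelial in 3, and Kupffer and stellate cells in 5, beside 12.6%, 25.1% and 28.2% of all genes. In nuclei 5 members were tested. Called were 5, 5 and 3 against hepatocytes in endothelial, stellate and Kupffer nuclei, beside 43.0%, 29.9% and 32.8% of all genes, and 2, 1 and 2 for stellate against endothelial, Kupffer against endothelial and Kupffer against stellate nuclei, beside 13.8%, 17.8% and 17.0%. The 1 of 5 for Kupffer against endothelial nuclei is near its share of all genes. The counts include members that passed the filter on low counts only through a gate where they are high. These are Igfbp2 in TLH endothelial cells (8 UMIs), Igfbp3 in hepatocyte nuclei (57 UMIs in DA and 42 in LEW) and Kupffer nuclei (25 UMIs), and Igfbp7 in hepatocyte and Kupffer nuclei (39 and 8 UMIs). Such a filter favours a difference, so the counts describe the members and no more.

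**Figure D3:**
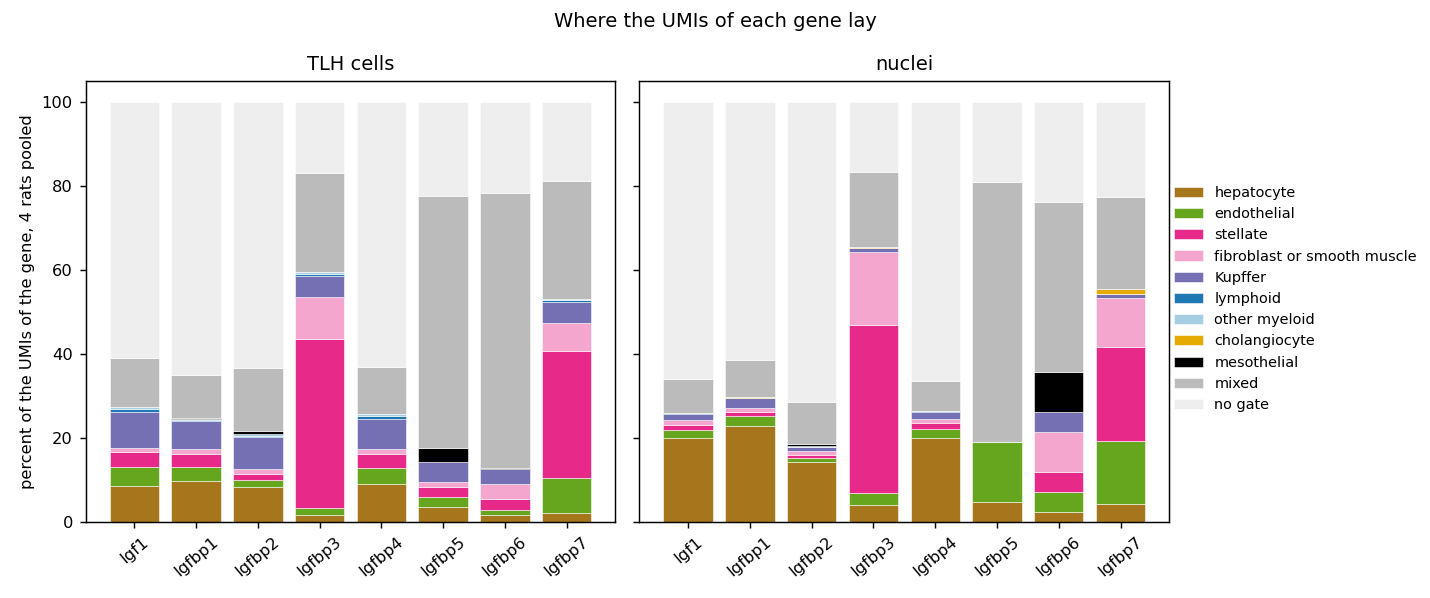
Share of the UMIs of each member found in each gate (stacked bars, percent of the member's UMIs in barcodes that passed the filters), with the 4 rats pooled, for TLH cells and nuclei. Most Igf1, Igfbp1 and Igfbp4 UMIs lie in barcodes that entered no gate (for Igf1 61.8% in TLH and 65.1% in nuclei as means of 4 rats), whereas the stellate gate holds the largest named share of Igfbp3 and Igfbp7.

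Other genes of the pathway, 27 found of 28 listed, showed where the partners of these proteins lay. Igfals, the acid-labile subunit, was lower than in hepatocytes in endothelial (log2 difference -0.96), stellate (-1.21) and Kupffer cells (-1.11) of TLH, and its hepatocyte level was 139 CPM in TLH and 172 CPM in nuclei. The growth hormone receptor Ghr was lower in endothelial (-0.39) and Kupffer cells (-0.61), with hepatocyte means of 170 CPM in TLH and 391 CPM in nuclei. Jak2, the kinase of that receptor, stood at 55.0 CPM in Kupffer cells and 5.98 CPM in hepatocytes of TLH and at 147 and 12.0 CPM in nuclei, with no test given because it passed the filter on low counts without any hepatocyte sum, and the immune-enriched Kupffer gates held it at 141 and 149 CPM. The secreted protease Htra1, which can cut IGF-binding proteins, was higher in endothelial cells by 0.79 in TLH and 0.77 in nuclei, and reached 409.5 and 324 CPM in immune-enriched endothelial cells. In all, 12 of these genes were tested in TLH, and 1 rose and 4 fell in endothelial, 0 rose and 2 fell in stellate, and 1 rose and 6 fell in Kupffer cells against hepatocytes, beside 34.0%, 20.0% and 45.3% of all genes called in either direction. In nuclei 11 were tested, with 1 up and 8 down in endothelial, 0 up and 6 down in stellate, and 1 up and 5 down in Kupffer barcodes, beside 43.0%, 29.9% and 32.8% of all genes. These counts include Jak2 and describe the list only. Igf2 had no UMI in any of the 4 TLH gates, and the IGF1 receptor Igf1r had 1 UMI in the stellate and 2 UMIs in the Kupffer gate, with 0 in the others.

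Genes with the most similar pattern over the 16 TLH sums (4 gates in 4 rats) were listed among 5503 genes outside the gate lists by Pearson's r of log2(CPM + 10). The sums share library and depth, so the values are a description. Closest to Igfbp3 were Bgn (r = 0.997), Sod3 (0.988) and LOC100910790 (0.988), and closest to Igfbp7 were Gja4 (0.987), Emilin1 (0.978) and Hgf (0.962). Closest to Igfbp1 were Tat (0.985), Cyp3a18 (0.976) and Slc38a2 (0.976), to Igfbp4 Col18a1 (0.943) and Slco2a1 (0.930), and to Igf1 LOC259244 (0.956), AABR07048474.1 (0.937) and Apoc1 (0.919).

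Strains were compared within each gate over 2 DA and 2 LEW rats. In hepatocytes no member was called in either set, beside 2.32% of all genes in TLH and 0.803% in nuclei. Igfbp1 in TLH hepatocytes was lower in both LEW rats (394 and 279 CPM) than in both DA rats (565 and 960 CPM), with a log2 difference of LEW from DA of -1.17 (SE 0.32, adjusted p = 0.197). In nuclei the difference was -0.81 (SE 0.46, adjusted p = 0.681), again with both LEW rats below both DA rats. Igfbp2 went the other way, with 6 UMIs in DA and 37 in LEW hepatocytes of TLH. No strain test of it is given there, because it passed the filter on low counts only through the LEW rats. In nuclei its difference was 1.30 (SE 0.53, adjusted p = 0.445). The strain difference in nuclei minus that in TLH was 0.28 (SE 0.53) for Igfbp1. The edgeR test of that quantity called 0 of 8369 genes, with 284 at an unadjusted p under 0.05, so it does not show that the sets were alike. Of 6 members with at least 20 UMIs in TLH hepatocytes, 3 did not overlap between strains, beside 44.6% of all genes, and of 6 in nuclei 4 did not, beside 36.1%. Over the other gates, 5 of 5 members in endothelial, 4 of 5 in stellate and 4 of 6 in Kupffer cells of TLH did not overlap, beside 45.6%, 42.0% and 48.1% of all genes, and 3 of 5, 2 of 5 and 0 of 4 in nuclei, beside 38.4%, 36.9% and 40.1%. In TLH hepatocytes 3 of 6 members, Igfbp2 among them, had an unadjusted p under 0.05 by edgeR, as did 885 of 5822 genes, and DESeq2 called 1 member.

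In Kupffer cells of TLH, Igf1 was called lower in LEW, with 480 and 524 CPM against 882 and 714 CPM in DA (log2 difference -0.71, SE 0.17, adjusted p = 0.0305). Igfbp1 was called lower there too, with 155 and 111 CPM in LEW against 257 and 468 CPM in DA (-1.49, SE 0.29, adjusted p = 0.0294). These 2 of 5 tested members were called beside 5.32% of all genes. The fibrinogen chains and other held-out hepatocyte genes in the same gate differed by -0.47 to 0.16, and none was called. In hepatocytes Igf1 differed by -0.20 and Igfbp1 by -1.17. The Kupffer difference minus that in hepatocytes was -0.40 (SE 0.10, adjusted p = 0.0141 by edgeR) for Igf1. For Igfbp1 it was -0.21 (SE 0.14, adjusted p = 0.727). Igfbp1 in Kupffer cells stood at 42.6% of its hepatocyte level, beside 55.5% for the held-out genes. The part of carried hepatocyte RNA in these calls was not tested. Both calls were lost when the replicate number was used as a block (adjusted p = 0.124 and 0.0938), with differences of -0.70 and -1.44. The Igf1 call was also lost without DA-1 (difference -0.53, adjusted p = 0.0516), without LEW-1 (-0.60, 0.247), without LEW-2 (-0.81, 0.0855) and when the LEW limit was the stated 1500 UMIs (-0.46, 0.178). The Igfbp1 call was lost in a stricter gate (-1.51, 0.0674), in the barcodes with lower hepatocyte-list shares (-1.89, 0.196), at 1500 UMIs for LEW (-1.43, 0.0639) and with 1 filter for all TLH libraries (-1.45, 0.108), beside a difference of -1.49 in all gated cells. In nuclei Igf1 in the Kupffer gate was 926 and 836 CPM in DA and 408 and 1165 CPM in LEW, and the strains overlapped. No member was called there, beside 0.425% of all genes. The immune-enriched libraries, with 1 rat per strain, had the other order, with Kupffer Igf1 at 146 CPM in DA and 183 CPM in LEW. The LEW library also held more hepatocyte RNA in that gate.

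Stellate Igfbp3 was lower in LEW in TLH (1076 and 718 CPM) than in DA (1630 and 1407 CPM), with a log2 difference of -0.73 (SE 0.18, unadjusted p = 0.000883 and adjusted p = 0.0574 by edgeR). In nuclei both LEW rats (2018 and 1540 CPM) were below both DA rats (2487 and 2684 CPM), with a difference of -0.55 (SE 0.33, adjusted p = 0.677). Held-out stellate genes of TLH moved by -0.57 for Bgn, -0.48 for Sod3, -0.15 for Steap4 and 0.76 for Tcf21. The immune-enriched rats gave 8546 CPM in DA and 7414 in LEW. No member was called in stellate cells of either set, beside 1.21% of all genes in TLH and 0.501% in nuclei, nor in endothelial cells, beside 3.32% and 0.554%. With an unadjusted p under 0.05 by edgeR there were 2 of 5 members in stellate cells of TLH, beside 504 of 4034 genes, and 4 of 5 in endothelial cells, beside 901 of 5368 genes. In nuclei there were 0 of 5, beside 204 of 2195 genes, and 2 of 5, beside 469 of 4148 genes. Among these, endothelial Igfbp4 in TLH differed by -0.61 (SE 0.17, adjusted p = 0.0501).

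Whether the strain difference itself differed between gates was tested over the sums of all 4 gates. This test was not planned, and no alternative filters, gates or left-out rats were run for it. In TLH 1 member was called for Kupffer against hepatocytes, Igf1, with a LEW minus DA difference lower by -0.40 on the log2 scale in Kupffer cells (SE 0.10, adjusted p = 0.0141), beside 1.33% of all genes. No member was called there for endothelial against hepatocytes (0.576% of genes), stellate against hepatocytes (0.0876%) or stellate against endothelial cells (0.225%). In nuclei no member was called for stellate against hepatocytes (0.0872%) or Kupffer against hepatocytes (0.0523%). Igfbp3 passed the threshold for endothelial against hepatocytes (0.122%) and for stellate against endothelial barcodes (0.0523%), from 5 to 32 UMIs per rat in the endothelial gate. Both calls are not read as results, because Igfbp3 passed the filter on low counts through the sums where it is high.

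**Figure D4:**
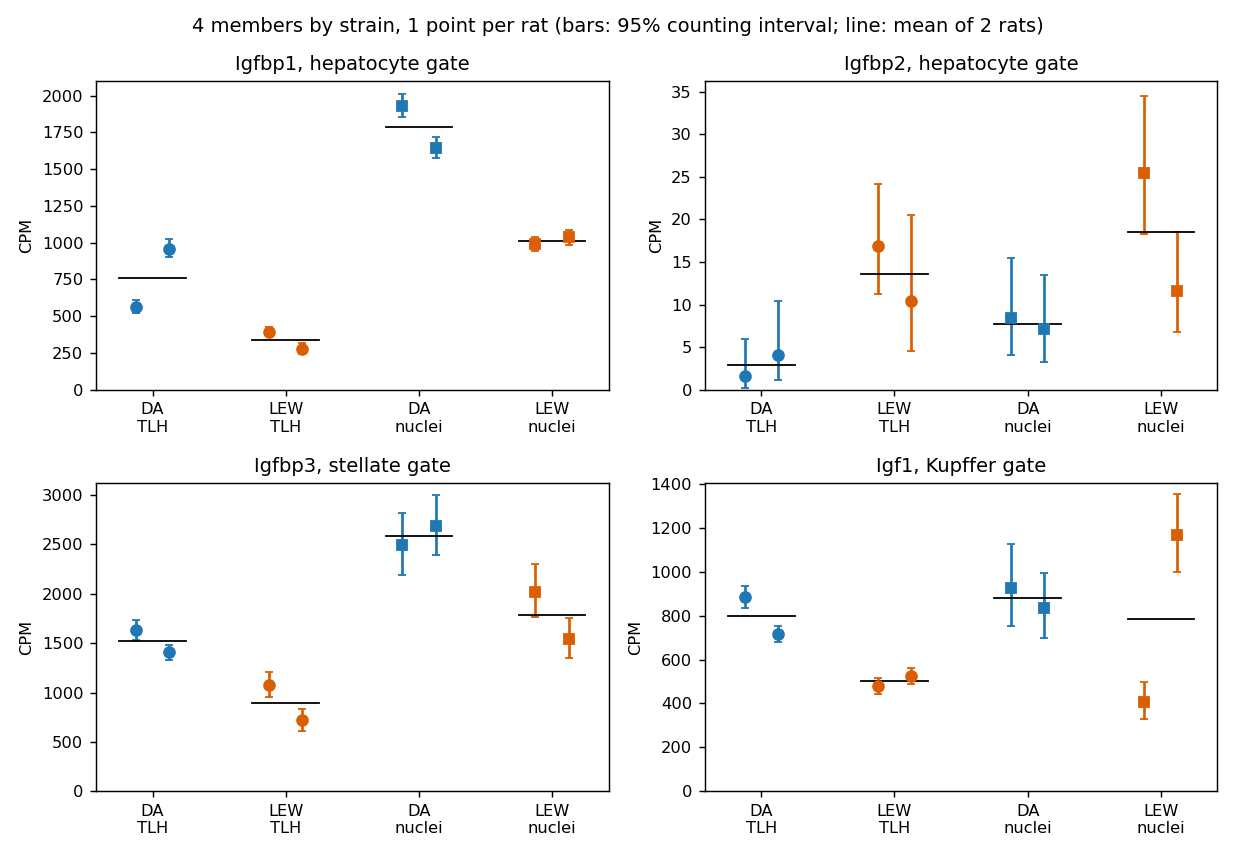
CPM per rat of Igfbp1 and Igfbp2 in hepatocytes, Igfbp3 in stellate cells and Igf1 in Kupffer cells, by strain and for TLH and nuclei, with 95% Poisson counting intervals and a line at the mean of 2 rats. Igfbp1 and Igfbp3 lie lower and Igfbp2 higher in both LEW rats of each set, whereas Kupffer Igf1 is lower in LEW in TLH (502 against 798 CPM) and overlaps in nuclei.

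Pathway genes other than the members gave strain calls in TLH. Socs2, a growth hormone-induced feedback inhibitor of its signalling, was higher in LEW by 2.26 (SE 0.41, adjusted p = 0.0180 by edgeR) in hepatocytes. In endothelial cells the fitted difference was 2.26 (SE 0.55), from 57 UMIs over the 4 rats. DA-2, at 2.94 CPM, was below the cutoff of the filter on low counts there. No p-value of endothelial Socs2 is given, because it needed LEW rats to pass that filter. In stellate cells Socs2 had 8 UMIs in DA and 26 in LEW, with means of 5.12 and 52.2 CPM. Its TLH mean was 29.3 CPM in hepatocytes and 25.4 CPM in endothelial cells, and the part of carried hepatocyte RNA in the endothelial call was not tested. In hepatocyte nuclei Socs2 ran from 47.3 CPM in DA-2 to 564 CPM in LEW-2, with a median of 72.9 CPM over the 4 rats. LEW-1 lay below DA-1 there, so the strains overlapped. Adam28, a metalloproteinase able to cut IGFBP3, had 11 UMIs in DA and 68 in LEW hepatocytes (5.02 and 28.4 CPM), and 10 and 27 in endothelial cells (6.79 and 26.6 CPM). Stellate Socs2 and both Adam28 comparisons passed the filter on low counts only through the LEW rats, so no test of them is given. With these and endothelial Socs2 included, 2 of 10 tested pathway genes were called in hepatocytes and 2 of 5 in endothelial cells, beside 2.32% and 3.32% of all genes. In stellate cells 1 of 5 and in Kupffer cells 0 of 12 were called, beside 1.21% and 5.32%. In nuclei 0 of 15, 5, 3 and 6 were called, beside 0.803%, 0.554%, 0.501% and 0.425%.

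The lobule runs from portal tracts to the central vein, and many hepatocyte genes change along it. Hepatocytes of each rat were split at the ends of a score made of periportal minus pericentral genes. Neither TLH nor nuclei gave a call for any member, 0 of 5 and 0 of 4 tested, beside 3.90% and 4.21% of all genes. Igfbp1 in TLH differed by -0.20 (adjusted p = 0.397) and Igf1 in nuclei by 0.34 (adjusted p = 0.538). Of 11 pathway genes tested in nuclei, Socs2 was called (0.75, adjusted p = 0.0473), a gene whose level in hepatocyte nuclei ran from 47.3 to 564 CPM over rats.

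Visium spots, small tissue regions that hold several cells, gave 2260 usable spots in section A and 2196 in section B, with medians of 14388 and 14849.5 UMIs. Igf1 was present in 98.6% and 98.0% of spots, Igfbp3 in 60.9% and 65.5% and Igfbp7 in 85.5% and 85.7%, while Igfbp2 was in 3.98% and 3.78%, Igfbp5 in 0.796% and 0.455% and Igfbp6 in 1.24% and 1.14%. The 20% of spots at the pericentral end and the 20% at the periportal end were compared, with a counting interval per section and no test. Cyp2e1, a pericentral gene of the score, read 2197 CPM at the pericentral and 1040 CPM at the periportal end of A, and 2504 and 1082 CPM in B, a difference that the score itself fixed.

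Igf1 read 332 CPM at the pericentral and 387 CPM at the periportal end of A (ratio 1.17, 95% interval 1.10 to 1.23) and 313 and 362 CPM in B (1.16, 1.09 to 1.22). Igfals read 288 and 325 CPM in A and 284 and 330.2 CPM in B, and held-out hepatocyte genes had a ratio of 1.10 in both sections. The Igfbp1 ratio was 0.999 (0.932 to 1.07) and 0.951 (0.888 to 1.02). Igfbp4 was lower on the portal side, with 579 against 627 CPM in A (0.924, 0.885 to 0.965) and 586 against 716 CPM in B (0.819, 0.785 to 0.854). Single held-out hepatocyte genes ranged from 0.983 (Apoh) to 1.22 (Apoc3) in A and from 0.934 (Apoh) to 1.23 (Apoc3) in B. Igf1 and Igfbp1 lay inside that range in both sections, and Igfbp4 lay below it.

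Igfbp3 had the lowest periportal ratio of the 5 members given. It was 99.1 CPM at the pericentral and 60.5 CPM at the periportal end of A (0.611, 0.539 to 0.691), and 116 and 73.0 CPM in B (0.629, 0.562 to 0.705). Most but not all stellate genes had a ratio under 1. The stellate marker list summed to a ratio of 0.674 in A and 0.656 in B, and held-out stellate genes to 0.803 and 0.776, of which Bgn had 0.785 and 0.781, so that fewer stellate cells and less Igfbp3 per cell cannot be told apart. Ecm1 gave 1916 of the 4433 pericentral UMIs of the stellate list in A and 2311 of 4752 in B, with ratios of 0.570 and 0.506. Pdgfrb stood at 1.08 and 1.17, and Dcn, from 7 to 29 UMIs an end, at 2.26 and 2.03. In the 20% of spots with the highest stellate-list share Igfbp3 was 101 CPM in A and 119 in B, beside 66.9 and 77.2 in the other spots. Igfbp7 had the opposite order, with 151 and 173 CPM in A (1.15, 1.06 to 1.25) and 164 and 201 in B (1.23, 1.13 to 1.33). The endothelial list had ratios of 0.811 and 0.857 and the Kupffer list 2.14 and 2.30. The fibroblast and smooth muscle list stood at 1.05 and 1.00, but Dpt alone gave 4381 of its 4419 pericentral UMIs in A and 4454 of 4503 in B, and Tagln, from 14 to 21 UMIs an end, stood at 1.38 and 1.30. The part of these lists in the Igfbp7 order was not tested.

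**Figure D5:**
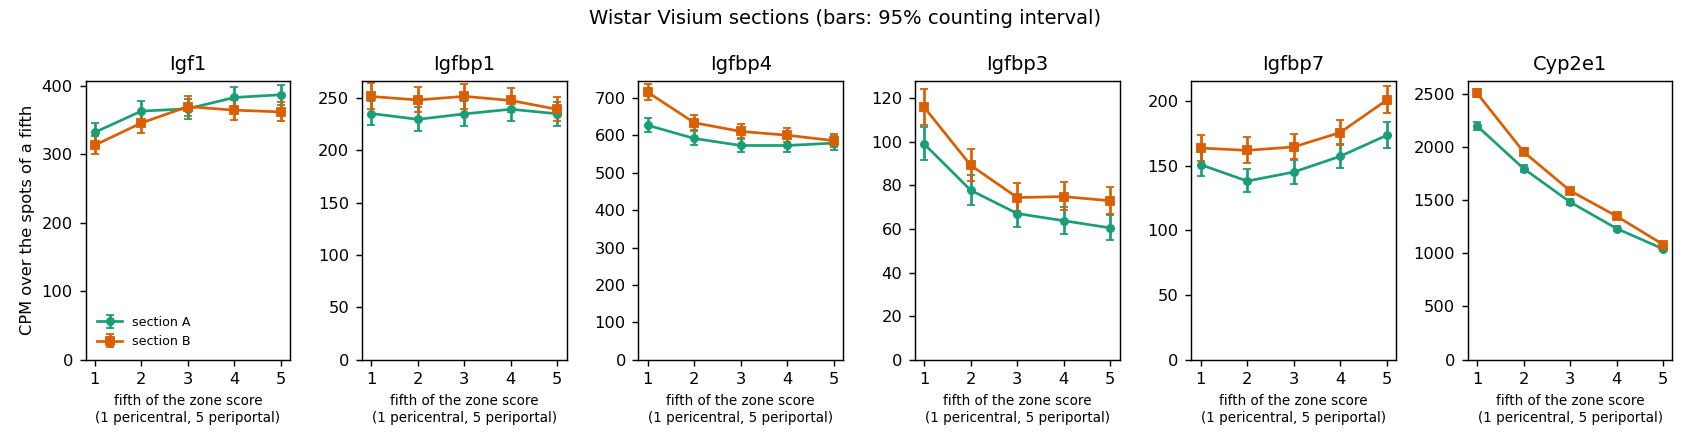
CPM per 20% of spots ordered by the zone score from the pericentral to the periportal end, for Igf1, Igfbp1, Igfbp3, Igfbp4, Igfbp7 and Cyp2e1 in sections A and B. Igfbp3 and Cyp2e1 are lower at the periportal than at the pericentral end, Igf1 and Igfbp7 are higher there, and the ends differ little for Igfbp1 (ratios of 0.999 and 0.951).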

How the data were processed

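The authors made the deposited counts (UMIs per gene and barcode or spot, not normalized and before their filters) with Cell Ranger 3.1.0 and Space Ranger 1.1.0, per the submitters' processing notes. TLH and immune-enriched counts carried no gene names, which were taken by row position from the nuclei gene list of the same 32883 rows. Members and lists were chosen with earlier results of these data known. All 8 members are named, with pathway genes past the threshold and the 3 genes nearest in pattern to each of 5 members (Igfbp2, Igfbp5 and Igfbp6 were not ranked), of which 1 is not reported here.

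Barcodes were kept at 1500 UMIs and 30% mitochondrial UMIs (DA-1), 2000 and 20% (DA-2), 2000 and 40% (LEW), 1000 and 50% (immune-enriched) and 1000 and 10% (nuclei). For LEW the stated limit is 1500. A non-parenchymal gate took at least 3 UMIs from 2 genes of a list and 3 times those of other lists. Stellate-gated barcodes with at least 2 UMIs of the fibroblast and smooth muscle list, from any of its genes, formed the fibroblast and smooth muscle gate. The hepatocyte gate took 10 hepatocyte-list UMIs in cells or 3 in nuclei and no non-parenchymal UMI. Barcodes with mixed markers were dropped, and no doublet caller was run. UMIs were summed per rat and gate, for gates with 20 barcodes in every rat, and tested with edgeR 4.0.16 in R 4.3.3 (TMM, default filter on low counts, Benjamini-Hochberg at 0.05, two-sided) and, as an alternative, DESeq2 1.42.0. Other steps used Python 3.11.15. Replicates are separate rats. Poisson intervals cover counting error only. Tested on simulated data, the hepatocyte strain comparison recovered 54.5% of genes changed by a log2 difference of 1 in TLH (5780 genes) and 58% in nuclei (8188 genes), and 97% and 99.5% at 2. The simulated spread between rats was the same for every gene and was not taken from these data. In hepatocytes the SE of the Igfbp1 strain difference was 0.32 in TLH and 0.46 in nuclei, so these shares do not give the power for the members. Alternatives were other normalization and filters, gates and libraries left out.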

Additional observations from a re-analysis of the deposited data

Results flagged for a closer look

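The LEW minus DA difference of Igf1 was larger in Kupffer cells than in hepatocytes of TLH, by -0.40 on the log2 scale (SE 0.10, adjusted p = 0.0141 for the interaction in edgeR, where 1.33% of genes were called). The difference itself was -0.71 in Kupffer cells and -0.20 in hepatocytes. In nuclei the same interaction was -0.26 (SE 0.38, adjusted p = 0.924). Neither interaction was a planned test.

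For Igfbp3 the fitted strain difference in nuclei was larger in endothelial barcodes than in hepatocytes, by 2.51 (SE 0.59), and smaller in stellate than in endothelial barcodes, by -2.35 (SE 0.53). Both passed the threshold, beside 0.122% and 0.0523% of genes. No p-value is given, because Igfbp3 passed the filter on low counts through the sums where it is high. Endothelial nuclei held 49.5 CPM in DA-1, 22.0 in DA-2, 135 in LEW-1 and 114 in LEW-2, from 10, 5, 27 and 32 UMIs. Few barcodes carried them, 8, 4, 6 and 9, and 1 LEW-1 barcode held 18 UMIs. Of the LEW UMIs, 25 and 30 lay in barcodes without a UMI of the stellate list. In TLH endothelial cells Igfbp3 was lower in LEW, by -0.92 (SE 0.35, adjusted p = 0.182).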

How the results depend on the processing

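Of the 43 member and gate-pair calls and the 2 strain calls, 520 alternatives were computed. Of these 481 kept the call, 39 lost it and 0 turned its direction. These numbers include calls of members that passed the filter on low counts only through the gates where they are high, so they are not read as stability. Such calls were Igfbp7 in endothelial and stellate against hepatocyte and Kupffer nuclei, and Igfbp3 in stellate against hepatocyte and Kupffer nuclei (kept in 11 of 11 alternatives each). Igfbp3 in endothelial against hepatocyte nuclei was kept in 9 of 11, and Igfbp2 in TLH endothelial cells against hepatocytes in 6 of 8. With at least 1500 UMIs per nucleus, 11 of the 18 nuclei calls were left. Lost were Igf1 in endothelial, stellate and Kupffer nuclei against hepatocytes, Igfbp1 in endothelial and Kupffer nuclei and Igfbp4 in stellate and Kupffer nuclei.

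Members called between strains, 0 in each gate but TLH Kupffer (2), came to these numbers, with all genes called of those tested in parentheses. Without the filter on low counts there were 2 in TLH hepatocytes (341 of 13010), 2 in endothelial (304 of 12653) and 2 in stellate cells (130 of 12429) and 1 in endothelial nuclei (100 of 13699). DESeq2 called 1 in TLH hepatocytes (78 of 13010) and 1 in endothelial cells (62 of 12653). Allowing 1 non-parenchymal UMI gave 1 in TLH hepatocytes (256 of 8199) and 1 for the zone in nuclei (359 of 7827), and all deposited barcodes gave 1 in TLH (763 of 13218). A stricter gate gave 1 in TLH endothelial (133 of 4896) and 1 in Kupffer cells (400 of 7013), the barcodes with lower hepatocyte-list shares 1 in endothelial cells (105 of 3638), 1 filter for all TLH libraries 1 in endothelial (203 of 4671), 1 in stellate (52 of 2709) and 1 in Kupffer cells (350 of 7340), and 1500 UMIs for LEW 0 in Kupffer cells (249 of 8013). Leaving out each rat in turn gave 0 to 1 in TLH hepatocytes (67 to 146 genes), 0 to 3 in endothelial (87 to 341), 0 to 2 in stellate (65 to 135) and 1 to 2 in Kupffer cells (312 to 615), and 0 to 1 in endothelial nuclei (42 to 105).

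Replicate numbers are shared by the strains but did not pair the rats (correlations of same-numbered deviations -0.227 to -0.114 in TLH and -0.151 to 0.159 in nuclei). With the replicate block 1 member was called in TLH stellate cells (95 of 4034 genes), 0 in TLH Kupffer cells (179 of 7351) and 1 in endothelial nuclei (131 of 4148). The crossed pairing, added after the data were seen, gave 2, 2 and 2 in TLH hepatocytes, endothelial and stellate cells (428, 384 and 187 genes) and 1 in endothelial nuclei (81).

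The share of the hepatocyte level changed with the gate. In the barcodes with lower hepatocyte-list shares, held-out genes stood in TLH at 59.3% (endothelial), 64.0% (stellate) and 38.4% (Kupffer) and in nuclei at 35.3%, 40.6% and 32.6%. Igf1 stood at 83.6% in endothelial and 55.6% in Kupffer cells of TLH, and at 42.9% in endothelial and 54.2% in stellate nuclei (66.8% in the stricter stellate gate). In TLH Kupffer cells Igfbp1 stood at 29.8% (stricter gate 37.6%) and Igfbp4 at 41.6% (50.9%), and Igfbp4 was at 59.9% in stellate and 56.2% in Kupffer nuclei. With textbook zone lists the Igfbp4 ratio in section B was 0.858. The cause of these shifts was not tested.

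Over all genes, strain calls ranged widely: 135 in TLH hepatocytes (67 to 763), 178 in endothelial (52 to 384), 49 in stellate (14 to 187) and 391 in Kupffer cells (160 to 670), and in nuclei 66 (0 to 266), 23 (6 to 196), 11 (0 to 84) and 13 (0 to 175). Zone calls were 140 (58 to 331) in TLH and 252 (133 to 1140) in nuclei.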

Other observations

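The receptor Igf2r, which takes up IGF2 and mannose 6-phosphate proteins for the lysosome, was counted in Kupffer cells at a mean of 26.0 CPM in TLH and 68.5 CPM in nuclei, and at 46.3 CPM in the DA and 43.2 CPM in the LEW immune-enriched library. In TLH lymphoid cells Igf1 stood at a mean of 639.5 CPM and Igfbp4 at 317 CPM, close to the levels of Kupffer cells. In the immune-enriched libraries the same class held 10.3 and 19.8 CPM in DA and 134 and 64.6 CPM in LEW.

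Igfbp2 in the DA library lay mostly in barcodes with mixed markers, with 77 UMIs or 64.7%, whereas in LEW 102 UMIs or 33.4% lay in such barcodes and 169 UMIs or 55.4% in barcodes of no gate. The DA fibroblast and smooth muscle gate held Igfbp6 at 881 CPM and the stellate gate at 706 CPM, whereas both LEW gates held 0 UMIs. These values rest on 1 rat per strain and on few barcodes.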
